A study of Homo sapiens with 6 samples.

Results

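The poly(A) sites described here are the 2118 peaks of poly(A) 3′-seq reads that lay at annotated ends of long noncoding RNA (lncRNA) genes, of 200023 peaks in the list for IMR-32 neuroblastoma (NB) cells. A peak was taken when its summit fell between 200 bp upstream and 600 bp downstream of a transcript end of a GENCODE lncRNA gene and outside every protein-coding gene body extended by 4 kb on both sides. The choice used position only, and neither peak height nor sequence. IMR-32 is an established human NB line with amplification of the MYCN oncogene. The 6 libraries came from cells given DMSO, the solvent control, cells given THZ531 at 400 nM for 2 h, and cells given THZ531 at 400 nM for 6 h, with 2 libraries in each group. THZ531 is a covalent inhibitor of the transcriptional kinases CDK12 and CDK13. The libraries were made with a 3′ mRNA kit in which each read starts at the cleavage site. The deposited list was called on merged reads and holds no value for any single library, so untreated and treated cells could not be compared, no value has a replicate error, and the sequencing depth is unknown. The intervals given below are 95% binomial intervals on counts of peaks or genes and cover counting error only, since reads at a site are not independent molecules.

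LncRNAs are transcripts without a long open reading frame, and most of those that are stable are made by RNA polymerase II, spliced and polyadenylated as mRNAs are. Cleavage follows a hexamer, AATAAA or a near relative, that the CPSF complex binds in the nascent RNA shortly before the cut. Priming with oligo(dT) can also start on runs of A inside a transcript, and such runs are visible in the genome just downstream of an apparent site. Some lncRNAs serve mainly as hosts for snoRNAs or microRNAs held in their introns or exons, some act in the nucleus, as MALAT1 and NEAT1 do, and several imprinted loci, H19 and MEG3 among them, express a lncRNA from 1 parental allele.

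The sequences before the cut are shown for 5 well-known lncRNA genes with a tall end peak, because each shows a hexamer of the kind counted below. Each line holds 100 bases of the lncRNA strand up to the 3′ edge of the peak and 20 bases after it, and capitals mark every match to the 12 hexamers searched.
H19: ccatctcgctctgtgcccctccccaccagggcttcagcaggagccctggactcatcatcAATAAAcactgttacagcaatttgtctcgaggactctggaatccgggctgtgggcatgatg
MIR17HG: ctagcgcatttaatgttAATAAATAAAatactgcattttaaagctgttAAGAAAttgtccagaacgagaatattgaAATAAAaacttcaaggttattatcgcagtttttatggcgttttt
CASC15: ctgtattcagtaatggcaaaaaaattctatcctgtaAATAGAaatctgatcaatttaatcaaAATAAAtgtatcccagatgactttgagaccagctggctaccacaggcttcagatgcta
NORAD: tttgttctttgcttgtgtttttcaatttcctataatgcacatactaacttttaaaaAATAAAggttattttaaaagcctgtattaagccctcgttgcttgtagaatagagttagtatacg
CRNDE: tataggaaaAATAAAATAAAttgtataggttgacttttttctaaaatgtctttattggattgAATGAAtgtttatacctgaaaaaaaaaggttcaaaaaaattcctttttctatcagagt
These windows lie, on GRCh38, at chr11:1995135-1995254 (minus strand) for H19, an imprinted fetal RNA, at chr13:91354483-91354602 (plus strand) for MIR17HG, the host of the miR-17-92 cluster, at chr6:22147639-22147758 (plus strand) for CASC15, a lncRNA of the NB susceptibility locus at 6p22, at chr20:36045584-36045703 (minus strand) for NORAD, a cytoplasmic RNA that binds Pumilio proteins, and at chr16:54918844-54918963 (minus strand) for CRNDE, an RNA raised in several tumours. In MIR17HG an AATAAA started 24 bp before the edge. The AATAAA of CASC15 started 38 bp, that of H19 41 bp and that of NORAD 44 bp before it. CRNDE had an AATGAA 38 bp before the edge and its AATAAA copies only 86 and 91 bp before it.

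Of the 2118 peaks, 1559 (73.61%) had a −log10 q of at least 5, against 69.3% of all peaks in the list. The study used that cutoff for its sample-specific peaks, together with a minimum of reads. The 1559 peaks are described from here on. The other 559 fell below the cutoff. A −log10 q of at least 20 was reached by 208 of the 2118 (9.82%), against 6.49% of all peaks. The peaks outside extended coding genes numbered 27442, so the 2118 at lncRNA ends were 7.718% of them. Before coding genes were taken out, 5559 peaks lay at lncRNA ends. Of peaks with a −log10 q of at least 5, the rule would take 2457 with coding genes not extended and 690 with the Ensembl canonical transcript of each gene alone. The median width was 115 bp, and widths ran from 100 to 898 bp. In 21 of the 1559, ends of lncRNA genes on both strands were in reach, so the strand of the peak could not be told. The list gives no strand, so a peak was read on the strand of the end it lay at, and the sequence measures rest on the other 1538.

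The cells were checked by peaks at coding transcript ends of lineage genes. Of 12 NB and sympathoadrenal markers 10 had one, with PHOX2A at 123, HAND2 at 67, GATA3 at 66, ISL1 at 55 and CHGA at 53 reads at the summit. The lowest of the 10 were CHGB at 27, TH at 23 and DBH at 19 reads. MYCN and TBX2 had summits 368 and 398 bp upstream of their ends, outside the window, with 100 and 75 reads. Of 7 markers of other lineages, EPCAM with 7 and COL1A1 with 15 reads had one, and PTPRC, CD3E, KRT8, PECAM1 and ALB had none.

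The lncRNA end peaks were lower than coding end peaks and higher than the other peaks of lncRNA genes. Height is given as reads at the summit, recovered from the fold and −log10 p columns, with at most 1 read per position and strand, so tall peaks are compressed. Heights in the whole list ran to 200, and reads of both strands can add to a height. A height is therefore not a count of transcripts from the lncRNA strand. The median was 14 reads (quartiles 10 and 20, highest 99) over the 1559 peaks. It was 20 reads (quartiles 14 and 29, highest 123) over 18972 coding transcript-end peaks, and 11 reads (quartiles 9 and 16) over 5644 peaks elsewhere in lncRNA gene bodies outside coding genes. At least 50 reads were reached by 36 lncRNA end peaks, 2.31% (95% Wilson interval 1.67 to 3.18), by 5.07% (4.77 to 5.39) at coding ends and by 1.24% (0.983 to 1.56) elsewhere in lncRNA genes, against 1.43% of all peaks at that cutoff. Peaks were also far denser at lncRNA ends. The end windows outside coding genes cover 15.85 Mb and held 98.4 peaks per Mb (exact Poisson interval 93.5 to 103), whereas the remaining 411.3 Mb of lncRNA gene bodies held 13.7 per Mb (13.4 to 14.1). Of the 5644 peaks in those bodies, 599 had their summit in an annotated lncRNA exon.

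Peaks just inside and just outside the window were alike in height. The 108 peaks with a summit in the last 100 bp of the downstream side of a window had a median of 15 reads, and the 56 peaks in the next 100 bp, which were not taken, had 14. The 166 peaks in the first 100 bp of the upstream side had a median of 16 reads, and the 47 peaks in the 100 bp before it had 14. Peaks were fewer outside each border than inside it. Those outside were only peaks that no window took, and the counts were not set per base. They therefore do not show a fall in peaks at the borders.

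Within the window, the 3′ edges of the peaks gathered at the annotated ends, although the choice did not use the place within the window. The 3′ edge lay within 25 bp of a lncRNA end in 820 of 1559 peaks, 52.6% (50.1 to 55.1), and exactly at the end in 93. The median distance was 20 bp (quartiles 3 and 152.5). At coding ends 59.3% (58.6 to 60) of 18972 peaks lay within 25 bp, and the median distance was 10 bp. The interval for lncRNA ends lay below that for coding ends. A 3′ edge more than 25 bp past the end was found for 646 lncRNA end peaks (41.4%), and more than 25 bp before it for 93 (5.97%). At coding ends these shares were 37.3% and 3.43%. The window reached 600 bp past an end and only 200 bp before it, so the excess past the end is partly set by the choice.

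**Figure D1:**
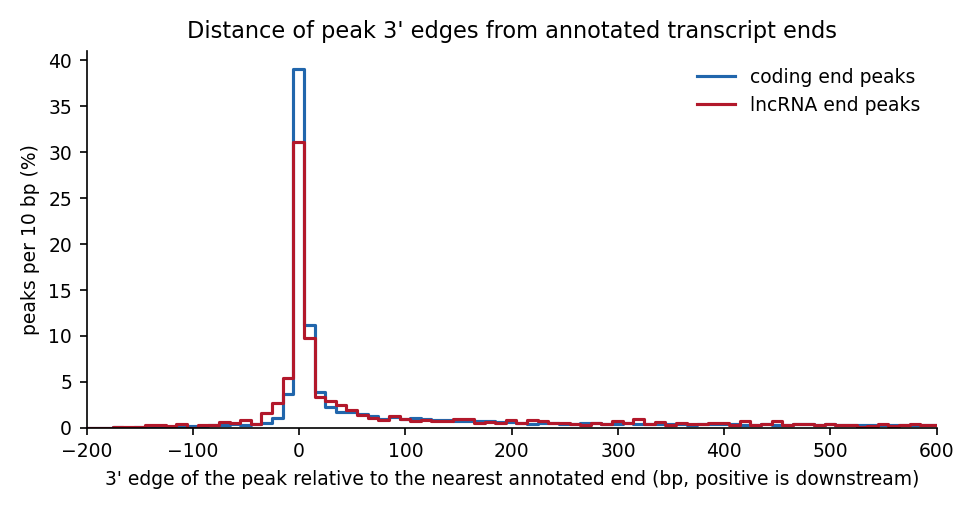
Distance in bp between the 3′ edge of a peak and the nearest annotated end (x axis, positive downstream) as the share of peaks per 10 bp (y axis, %), for 1559 lncRNA end peaks (red) and 18972 coding end peaks (blue). Both distributions have their highest bin at 0 bp, and the coding peak is the taller.

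A polyadenylation hexamer stood before the edge of most lncRNA end peaks, slightly fewer than at coding ends and many more than elsewhere in lncRNA genes. The 12 hexamers of the study were searched on the gene's strand in the 100 bp that end at the 3′ edge, with overlapping matches allowed. They are AATAAA itself, the forms changed at the first base, CATAAA with GATAAA and TATAAA, the forms changed at the second base, ACTAAA with AGTAAA and ATTAAA, then AAGAAA as well as AATGAA, and the forms changed at the fifth base, AATACA with AATAGA and AATATA. At least 1 was present in 1223 of 1538 lncRNA end peaks, 79.5% (77.4 to 81.5), against 63.7% of all peaks with a known gene strand. Coding end peaks had one in 84.5% (83.9 to 85) of 17980, and the difference was −4.96 percentage points (95% Newcombe interval −7.12 to −2.95). Other peaks in lncRNA genes had one in 58.1% (56.7 to 59.4) of 5256, and the difference was 21.5 points (19 to 23.8). The opposite strand of the same windows held a hexamer in 47.7% (45.2 to 50.2) at lncRNA ends. It did so in 57.5% (56.7 to 58.2) at coding ends and 39.3% (38 to 40.6) at other peaks in lncRNA genes. This background thus differed between the groups, and it was not taken off the shares compared above. It was higher at coding ends than at lncRNA ends, so their order holds only for shares with the background left in. Of 25973 annotated lncRNA ends outside coding genes with no peak, 72% (71.5 to 72.6) had a hexamer in the 100 bp up to the annotated end. Of 3092 such ends with a peak, 78.1% (76.6 to 79.5) had one in that stretch. When the reference peaks were weighted to the height of the lncRNA end peaks, the differences were −4.15 and 20.5 points. In the 100 bp that end at the summit in place of the 3′ edge, 39.9% of lncRNA end peaks had a hexamer. The differences there were −1.15 points (−3.68 to 1.42) from coding ends and 5.98 points (3.24 to 8.76) from other peaks in lncRNA genes. That window leaves out the bases between the summit and the 3′ edge. AATAAA most often started 22 or 23 bp before the edge, so these values are no check on the differences at the edge.

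AATAAA alone was present in 753 lncRNA end peaks, 49% (46.5 to 51.5), against 32% of all peaks with a known gene strand. It was in 54.3% (53.6 to 55) of coding end peaks and 27.1% (25.9 to 28.3) of other peaks in lncRNA genes. In the 100 bp up to the annotated end, it was in 37.4% (36.8 to 38) of lncRNA ends with no peak and 44.6% (42.9 to 46.4) of those with one. ATTAAA was in 18.7% (16.8 to 20.7) of lncRNA end peaks and 20.2% (19.6 to 20.7) of coding end peaks. The A-rich AAGAAA was found in 14.3% of lncRNA end peaks, 12% of coding end peaks and 14.3% of other peaks in lncRNA genes. AATAAA most often started 22 bp before the edge of lncRNA end peaks (64 peaks) and 23 bp before that of coding end peaks. Of the AATAAA matches in these windows, 57.9% at lncRNA ends, 60% at coding ends and 45.5% elsewhere in lncRNA genes started 15 to 30 bp before the edge.

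**Figure D2:**
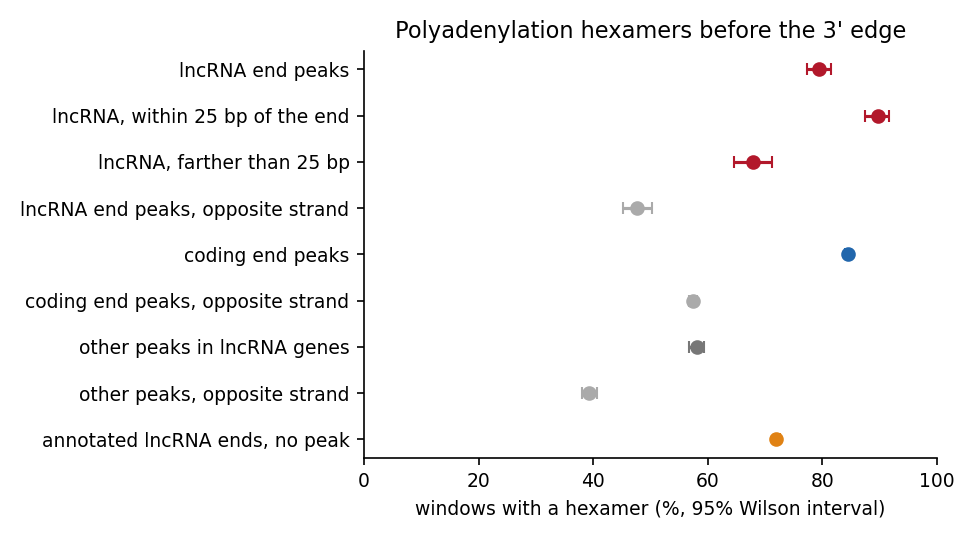
Share of 100 bp windows with at least 1 of the 12 hexamers (x axis, %, points with 95% Wilson intervals) for lncRNA end peaks (red), coding end peaks (blue), other peaks in lncRNA genes (dark grey), the same windows on the opposite strand (light grey) and annotated lncRNA ends without a peak (orange). LncRNA end peaks, at 79.5%, lie below coding end peaks, at 84.5%, and above other peaks in lncRNA genes, at 58.1%.

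**Figure D3:**
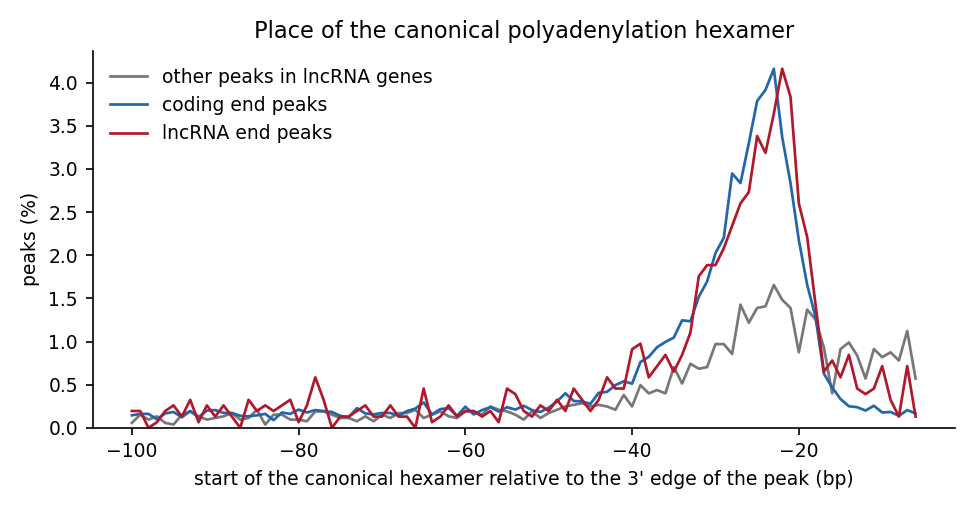
Start of the canonical hexamer relative to the 3′ edge (x axis, bp) against the share of peaks with a start at that base (y axis, %), for lncRNA end peaks (red), coding end peaks (blue) and other peaks in lncRNA genes (grey). The red and blue curves both reach 4.16%, at 22 and 23 bp before the edge, and the grey curve reaches 1.66%.

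Among the lncRNA end peaks, hexamers were more frequent close to the annotated end, and a difference with height was not resolved. Of the 812 peaks whose 3′ edge lay within 25 bp of an end, 89.8% (87.5 to 91.7) had a hexamer, against 68% of the 726 farther away, a difference of 21.7 points (17.7 to 25.7). AATAAA was in 62.3% of the first and 34% of the second, a difference of 28.3 points (23.4 to 33). Peaks of at least 20 reads had a hexamer in 81.1% and peaks of fewer than 10 reads in 77.4%, a difference of 3.65 points with an interval of −2.01 to 9.33. By kind of gene name, the share was 87.9% (77.1 to 94) at 58 peaks of microRNA host genes, 86.9% (81.2 to 91) at 183 peaks of genes named as antisense RNAs, 80.5% (75.5 to 84.7) at 282 LINC peaks and 77.8% (74.3 to 80.9) at 616 peaks of genes with only an Ensembl ID. These intervals overlap, except that the antisense genes lay above the genes with an Ensembl ID. Peaks of genes with 1 exon had a hexamer in 82.6% (77.1 to 87), and those of genes with more exons in 79% (76.7 to 81.1). By distance to the nearest coding gene the intervals overlapped, with 83.1% (78.4 to 86.9) at 4 to 10 kb and 79.1% (73.2 to 84.1) beyond 200 kb.

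A genomic run of A was more frequent at lncRNA ends than at coding ends and less frequent than elsewhere in lncRNA genes. At least 22 A in 25 bases within 50 bp downstream of the edge were found at 31 lncRNA end peaks, 2.02% (1.42 to 2.85), against 4.3% of all peaks with a known gene strand. The share was 0.851% (0.727 to 0.996) at coding ends and 5% (4.45 to 5.63) at other peaks in lncRNA genes. With at least 18 A, the shares were 9.43% (8.07 to 11), 4.06% (3.78 to 4.36) and 24.8% (23.6 to 26), against 21.2% of all such peaks. Peaks of fewer than 10 reads at lncRNA ends had such a run in 12.1% and peaks of at least 20 reads in 5.16%, a difference of −6.91 points (−11 to −3.02) when the low peaks were taken from the tall ones. Both a run of at least 22 A and no hexamer were seen at 21 lncRNA end peaks (1.37%). The study removed peaks of that kind, and they were kept here. With at least 18 A and no hexamer there were 77 (5.01%), and a hexamer with fewer than 18 A was seen at 1155 (75.1%). The 20 bases after the edge held 36.7% A at lncRNA ends, 28.7% at coding ends and 51.7% at other peaks in lncRNA genes.

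Sequences of 2 further lncRNA end peaks are shown in the same form. The first belongs to the peak with the highest −log10 q, because of the copies of it described next, and the second to a tall peak without any of the 12 hexamers.
ENSG00000289901: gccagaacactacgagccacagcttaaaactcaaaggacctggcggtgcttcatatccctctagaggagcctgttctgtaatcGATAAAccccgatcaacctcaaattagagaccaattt
LINC01829: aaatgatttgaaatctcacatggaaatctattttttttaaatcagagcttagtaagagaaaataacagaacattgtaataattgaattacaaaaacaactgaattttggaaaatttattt
On GRCh38 these lie at chr13:109424109-109424228 (minus strand) and at chr2:67175368-67175487 (minus strand). LINC01829, at 67 Mb of chromosome 2, had 53 reads in the peak shown, with at most 7 A in 25 bases downstream, and a second peak of 40 reads nearby whose AATAAA started 32 bp before the edge.

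Among the 10 peaks with the highest −log10 q, 5 had their last 75 bases at more than 1 place in the genome without a mismatch, and reads with up to 20 placements were kept when the files were made, so these heights can include reads from another copy. The highest by −log10 q was that of ENSG00000289901, a gene of 1 exon and 0.161 kb on chromosome 13, with 99 reads and a −log10 q of 130.1. Its last 75 bases stand at 4 places, itself counted, and 1 of these lies in the mitochondrial genome. It was the only one of 1538 lncRNA end peaks with a mitochondrial match within 5 mismatches. SDHAP4, which carries a pseudogene name but is annotated as a lncRNA, came next with 65 reads and a −log10 q of 68.34, and its last 75 bases were unique. Counted in the same way, ENSG00000291113 had 65 reads and 2 copies, HERC2P9 had 45 reads and 2 copies, ENSG00000277701 had 45 reads and 2 copies, and ENSG00000291063 had 43 reads and 6 copies. ENSG00000276216, with 65 reads and a unique end, overlapped RNVU1-14, a U1 variant snRNA gene. ENSG00000286171 had 56 reads, SNHG14 53 reads and FAM106A 39 reads, each with a unique end. Over all lncRNA end peaks, 183 of 1538 had another exact copy, 11.9% (10.4 to 13.6), against 1.84% (1.65 to 2.05) of coding end peaks and a difference of 10.1 points (8.52 to 11.8). The share was higher still at other peaks in lncRNA genes, 17.6% (16.6 to 18.7), and the difference from these was −5.74 points (−7.59 to −3.75). An annotated pseudogene lay under 162 of the 1538 lncRNA end peaks (10.5%) and an annotated small RNA gene under 15, among these snoRNA genes in SNHG14 and MEG8.

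At the gene level, 1067 of 10305 lncRNA genes had an end peak, 10.4% (9.78 to 11), counting the genes with at least 1 end window that reaches outside extended coding genes. The other 8561 of 18866 lncRNA genes had no such window and could not be scored. An end peak was the only one in 788 genes, 172 genes had 2 and 107 had 3 or more. Peaks in the gene body and at an end were both present in 580 genes, 487 had an end peak alone, and 1357 had a body peak alone. The share with an end peak was 50% (23.7 to 76.3) for the 10 eligible SNHG genes, which host snoRNAs, 33.9% (23.3 to 46.3) for 62 microRNA hosts, 23.4% (19.8 to 27.4) for 470 antisense genes and 19.7% (15.6 to 24.5) for 300 genes named as divergent transcripts. It was 8.76% (7.62 to 10) for 2101 LINC genes and 8.02% (7.4 to 8.69) for 6733 genes with only an Ensembl or clone ID, both below the antisense and divergent genes. Genes with 1 exon had a peak in 20.9% (18.5 to 23.5), those with 2 exons in 5.64% (4.9 to 6.49) and those with 3 or more in 11.1% (10.4 to 12). Genes with 5 or more annotated transcripts, which offer more ends, had one in 23.8% (22 to 25.7), and those with 1 transcript in 6.55% (5.94 to 7.22). With the canonical transcript of each gene alone, 6.75% of genes had an end peak.

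**Figure D4:**
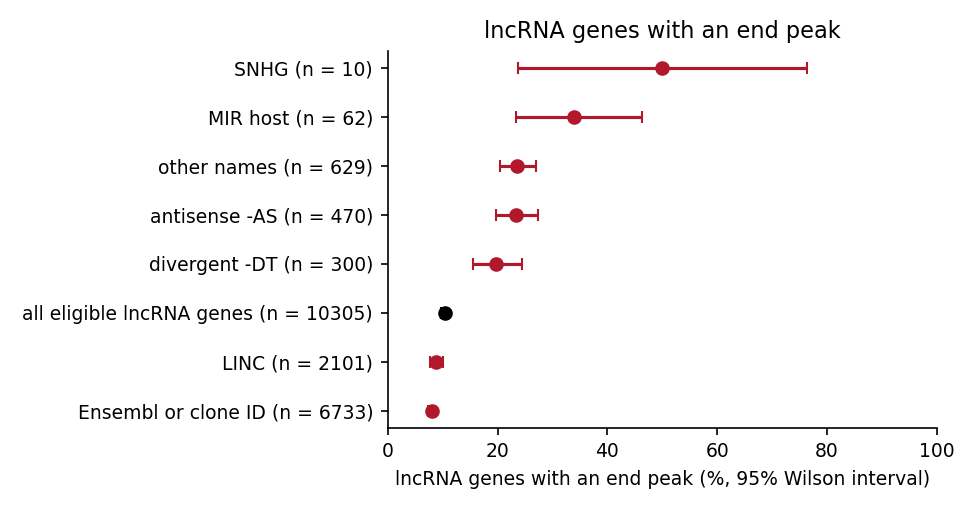
Share of eligible lncRNA genes with an end peak (x axis, %, points with 95% Wilson intervals) by kind of gene name, with the number of genes in brackets and all genes in black. The named kinds lie between 19.7% and 50%, and the LINC genes and genes with an Ensembl ID lie below 10.4%.

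All 10 genes of the nuclear and imprinted list that could be scored had an end peak, with a median of 31 reads in the highest peak of each gene. The list also holds NORAD, which is cytoplasmic. The share was 10.4% over all lncRNA genes that could be scored and 23.8% over those with 5 or more annotated transcripts. The lists were chosen with earlier results of these data known, so these counts describe the listed genes only. MALAT1, a nuclear speckle RNA, had 8 peaks of 58 to 99 reads, all with a local background of 18.6 to 26.7 reads and therefore folds of only 2.21 to 4.65. Its annotated ends lie along the gene body, and none of its 8 peaks had a −log10 q above 31.43. NORAD had 1 peak of 64 reads at a fold of 5.61. MEG3, a maternally expressed RNA of chromosome 14, had 5 peaks of 58, 31, 29, 24 and 16 reads, of which those of 31 and 29 reads ended 3 bp before and 1 bp after an annotated end. MEG8, in the same imprinted cluster, had 6 peaks of 9 to 25 reads, and MEG9 had 1 of 12 reads. H19 had 1 peak of 33 reads at a fold of 19.1 and 11 bp past its end. MIAT had 4 peaks of 12, 17, 23 and 31 reads. NEAT1, the scaffold of paraspeckles, had 1 peak of 19 reads 14 bp past an end. JPX and FTX, neighbours in the X inactivation centre, had 8 peaks each of up to 31 and 29 reads, and the 29-read peak counts for both because ends on both strands reach it. The other peaks of FTX had at most 18 reads. KCNQ1OT1 and OIP5-AS1 had no window outside extended coding genes, and TUG1 was not annotated as a lncRNA gene.

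Of the snoRNA hosts that could be scored, 6 of 12 had an end peak, 50% (25.4 to 74.6), against 10.4% of all lncRNA genes that could be scored. The share was 23.8% over genes with 5 or more annotated transcripts. The median was 30.5 reads in the highest peak of each host with one. DANCR had peaks of 39 and 40 reads, SNHG32 had 1 of 43 reads, SNHG10 1 of 20 and SNHG11 1 of 19. SNHG14, the long host of the SNORD115 and SNORD116 clusters, had 9 peaks, of which 1 reached 53 reads and the others lay between 8 and 21. SNHG27 had 1 peak, below the cutoff, and GAS5, SNHG1, SNHG15, SNHG17 and SNHG18 had none in the part of their end windows that lies outside extended coding genes. Another 19 hosts, SNHG3, SNHG5, SNHG6, SNHG8 and SNHG12 among them, could not be scored.

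Of the 62 microRNA hosts that could be scored, 21 had an end peak, 33.9% (23.3 to 46.3), against 10.4% of all lncRNA genes that could be scored. The share was 23.8% over genes with 5 or more annotated transcripts, which lies within the interval of these hosts. The highest peaks of the 21 hosts had 7 to 60 reads, with a median of 27. The highest was at MIR137HG with 60 reads, followed by MIR4458HG with 48, and MIR124-1HG and MIRLET7A1HG with 47 each. In that order, their 3′ edges lay 946, 12, 5 and 162 bp past an annotated end. The MIR137HG peak was 640 bp wide and had no AATAAA before its edge. MIR17HG had peaks of 41 and 27 reads, the first 3 bp before an annotated end. MIR100HG had 5 peaks of 12 to 34 reads, and MIR99AHG, which hosts miR-99a, let-7c and miR-125b-2, had 11 of 7 to 37 reads. The lowest of the 21 was at MIR193BHG, with 7 reads. Among the other 41 hosts, MIR222HG had 1 peak below the cutoff and the rest had none.

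Of 16 lncRNAs linked to NB or to its lineage that could be scored, 12 (75%) had an end peak. The share was 10.4% over all lncRNA genes that could be scored and 23.8% over those with 5 or more annotated transcripts. The median was 27.5 reads in the highest peak of each listed gene. CASC15 had 5 peaks of 64, 40, 14, 14 and 9 reads, and NBAT1, its antisense neighbour, had 1 of 12 reads. HAND2-AS1, which starts beside the sympathoadrenal factor gene HAND2, had 9 peaks. Of these, 4 had 35 to 55 reads and the other 5 had 10 to 14. The 4 high peaks had a local background of 7.33 to 9.15 reads and folds of 3.9 to 5.62. For the 5 low peaks the background was 0.34 to 0.99 reads and the folds were 6.22 to 8.21. The 5 low peaks ended 0 to 9 bp past an annotated end, while among the 4 high ones the distance was 5 to 340 bp. CRNDE had peaks of 50 and 23 reads, the first 1 bp before an end. DLEU2 had 1 peak of 28, DLX6-AS1 1 of 27, LINC00839 1 of 20, GATA2-AS1 1 of 19 and LINC-PINT 1 of 15 reads. PVT1, next to MYC, had 8 peaks of 9 to 20 reads. MYCNOS, the antisense RNA of MYCN, had 1 peak and CYTOR 2, all below the cutoff, and MYCNUT had none. FOXD3-AS1, GATA3-AS1 and HOTAIRM1 could not be scored.

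**Figure D5:**
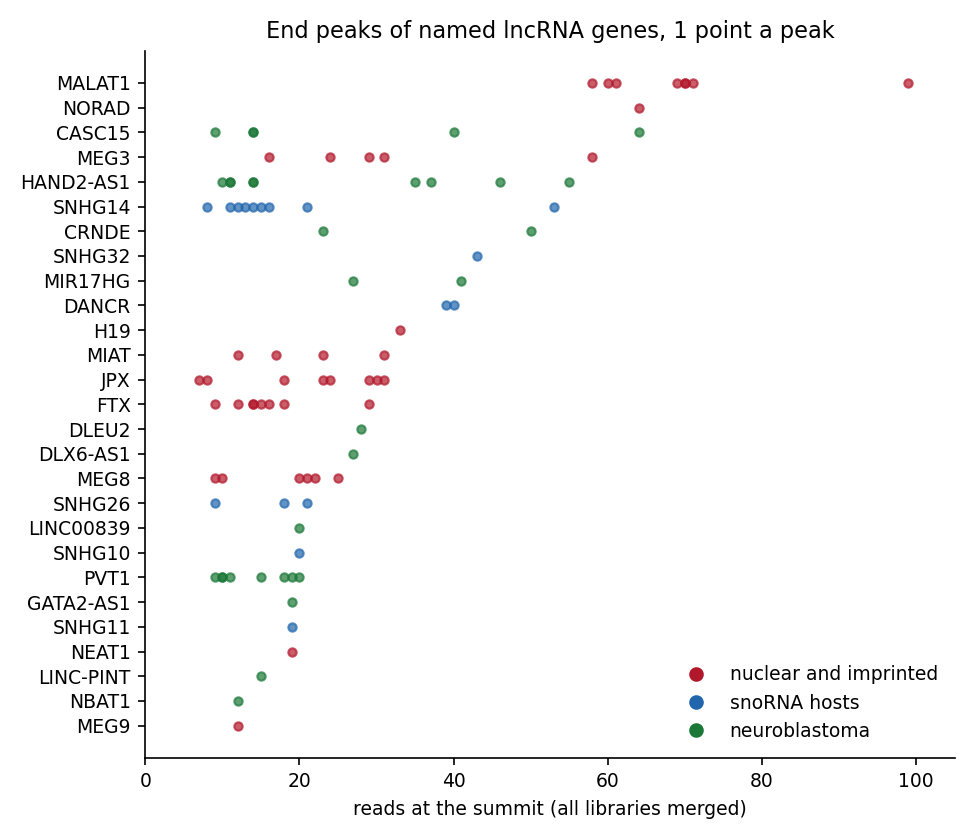
Reads at the summit (x axis, merged over all libraries) of every end peak with a −log10 q of at least 5, 1 point a peak. Colours mark the nuclear and imprinted list, NORAD included (red), snoRNA hosts (blue) and NB lncRNAs (green). Genes are ordered by their highest peak. MALAT1 has all its 8 peaks at 58 reads or more, while CASC15, HAND2-AS1 and SNHG14 each combine 1 to 4 high peaks with several low ones.

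The genes with most end peaks were LINC00662 and MIR99AHG with 11 each, then HAND2-AS1, PCBP1-AS1 and SNHG14 with 9 each. The peaks of LINC00662 had 8 to 31 reads and those of PCBP1-AS1 11 to 26 reads. In PCBP1-AS1, 6 of the 9 ended within 25 bp of an annotated end. FGD5-AS1 was the highest of the antisense genes with 60 reads, and ISL1-DT, divergent from the gene of the sympathoadrenal factor ISL1, the highest of the divergent transcripts with 38 reads, 2 bp before an annotated end. ISL1 itself had coding end peaks of up to 55 reads. The highest of the LINC genes was LINC01797 with 74 reads, at a site it shares with LINC01798 on the other strand.

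LINC01797 and LINC01798 lie at 66 Mb of chromosome 2, next to the homeobox gene MEIS1, where peaks of all kinds were dense. From 66 to 68 Mb there were 16 lncRNA end peaks of 11 to 74 reads, with a median of 30 against 14 over all. Of the 36 lncRNA end peaks with at least 50 reads, 5 were among these 16. The local background that the peak caller estimated there had a median of 5.06 and reached 31.7 reads, against a median of 0.81 over all lncRNA end peaks, and the 74-read peak had a fold of only 2.3. Besides the LINC01797 and LINC01798 peaks these were peaks of LINC01799, LINC01828, LINC01829 and ENSG00000236605. LINC01828 had 5, of 30, 30, 20, 20 and 20 reads, and 2 of them ended 4 and 5 bp past an annotated end with an AATAAA 25 and 24 bp before the edge. The part of DNA copy number in these heights was not tested.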

How the data were processed

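Poly(A) 3′-seq libraries (QuantSeq REV) of 6 IMR-32 cultures were processed by the authors. Reads were trimmed with BBDuk and aligned to GRCh38 with STAR 2.5.1b, keeping reads with up to 20 placements, and peaks were called with MACS2 2.1.1 on merged reads, extended to 100 bp, without a control. Versions follow the submitters' processing notes. Which libraries were merged is not given in the sources used here, and they were taken to be these 6. The deposited list gives each peak a score, a fold (ratio over local background), and −log10 p and −log10 q values as MACS2 wrote them, with no strand and no value per sample.

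Reads at the summit were recovered by a script as the whole number that fits both the fold and the −log10 p as a Poisson tail, with a misfit of at most 0.000172. Ends came from GENCODE 44 (the study used 27). Python 3.11.15, numpy 2.4.6, pandas 2.3.3 and SciPy 1.17.1 were used, and the steps were tested on simulated data. A peak's 3′ edge was its last base on the strand of the end. Shares have Wilson and differences Newcombe intervals at the 95% level. No p was computed, since peaks of 1 pooled list are not replicates. Exact copies of the last 75 bases were counted on the 24 chromosomes and the mitochondrial genome. Named genes are those of 4 lists (nuclear and imprinted, snoRNA hosts, microRNA hosts, NB lncRNAs), the 10 peaks of highest −log10 q, the 5 genes with most peaks and the highest of each kind of name. The genes on the Y chromosome and XIST were left out. LINC01828 and LINC01829 were chosen after their values were seen. Some genes of the lists and some sequences are not reported here. The members and lists were chosen with earlier results of these data known.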

Additional observations from a re-analysis of the deposited data

How the results depend on the processing

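No paired analysis was possible because every peak carries merged reads alone, and likewise no replicate could be left out. Of 56 values recomputed for the main results, 28 moved beyond the 95% interval of the value reported (counts: beyond 1.5 times), and none changed sign; the one comparison whose interval then reached zero is named below. The number of lncRNA end peaks was 208 with a −log10 q of at least 20, 2457 with coding genes not extended and 690 with canonical transcripts only. The share of genes with an end peak was 13.6% with no cutoff, 1.94% at 20, 8.29% with 100 bp either side of the end, 9.27% with coding genes extended by 10 kb and 6.75% with canonical transcripts. Median reads were 11 with no cutoff and 31 at 20. The share with a hexamer was 77.3% with no cutoff, 84.8% at 20, 49% with AATAAA alone, 61.7% with AATAAA and ATTAAA, 39.9% in the 100 bp that end at the summit, 82.9% without peaks with at least 18 A downstream and 85.5% with 100 bp either side of the end. The difference from coding ends was −1.15 points (−3.68 to 1.42) in the window that ends at the summit. That window leaves out the bases between the summit and the 3′ edge, where hexamers most often started. The difference from other peaks in lncRNA genes was 24 points with no cutoff, 18.3 at 20, 27.2 with AATAAA and ATTAAA, 5.98 at the summit and 27.3 with 100 bp either side. The share with an A run was 9.43% at 18 A and 0.49% at a −log10 q of 20. The share within 25 bp of an end was 46.6% at 20, 61.6% within 50 bp and 49.3% with canonical transcripts. The cause of these shifts was not tested. Leaving out peaks with another exact copy, chosen after seeing the data, gave 80.2% with a hexamer and differences of −4.39 and 19.8 points. Of the 61 named genes, 33 had an end peak at a −log10 q of 20, 57 with 100 bp either side, 53 with 10 kb and 23 with canonical transcripts. Depth is unknown, so a gene without a peak was not detected at these libraries' depth.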
